A study of Mus musculus with 6 samples.

Results

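The extracellular matrix is the scaffold of secreted proteins around cells. Fibronectin and other glycoproteins link it to integrins, elastin and the fibrillin microfibrils give it recoil, lysyl oxidases crosslink it, proteoglycans hold water and growth factors, and laminins, nidogens and perlecan build the basement membrane under epithelia. In breast tumors part of this matrix is made by the carcinoma cells and part by fibroblasts of the stroma. The genes described here are 40 non-collagen matrix genes, of 53465 genes in the deposited table. They are 8 glycoproteins, 12 genes of elastic fibers, 4 lysyl oxidases, 7 genes of proteoglycans and hyaluronan, and 9 basement membrane genes. They were chosen by name and matrix class, with the log2 fold changes between the 2 groups of these libraries known, and were matched by Ensembl identifier. Differences between the groups are therefore a description of the listed genes, and counts over them are not evidence for a direction.

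Polyadenylated RNA was measured in EMT6, a mouse mammary carcinoma cell line. Cells labelled parental had received isotype control IgG (P VITRO, n = 3), and those labelled resistant an antibody against PD-L1 (PTR VITRO, n = 3). Both groups were grown in RPMI with serum and with 0.5 μg/ml of antibody for more than 4 weeks. A single cell line was used, and the study's notes to its data call replicates technical where nothing else is stated, so p-values measure only the spread between these libraries. The question was whether matrix transcripts of the tumor cells differ after long contact with the antibody outside an animal.

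The total estimated count ran from 17757341 (PTR VITRO replicate 3) to 32426739 (PTR VITRO replicate 1). Levels are library-scaled counts (CPM, with upper quartile scaling), and levels of different genes are compared per kilobase of exon. Epithelial keratin Krt8 was at 1031 to 1128 CPM and the mesenchymal filament Vim at 1840 to 1972 CPM. The keratin Krt18 was at 479.8 to 505.8 CPM in P VITRO libraries and at 523 to 568 CPM in the others, Epcam at 1.24 to 1.80 and at 2.15 to 2.41 CPM, and the cadherin Cdh1 had at most 1 count in a library. Of 10 epithelial markers 6 were tested, and 5 of them had a log2 fold change (PTR VITRO minus P VITRO) above 0 (median 0.11). Over all tested genes, 51.5% were below 0. By adjusted p edgeR called 0 of the markers, against 0.246% of all tested genes. An unadjusted p below 0.05 was found in 3, Krt18, Epcam and, with the lower level in PTR VITRO, Krt14, against 11.4% of all tested genes. Of 8 mesenchymal markers, a list that holds Fn1, 7 were tested, 3 with a log2 fold change below 0 and 4 above. An unadjusted p below 0.05 was found in 2, Fn1 and Zeb1 (log2 fold change -0.24), against 11.4% of all tested genes. The groups were apart in these 2, against 17.6% of all tested genes, and edgeR called 0 of the list. The summed mesenchymal list, most of it Fn1 and Vim, ran from 8551 to 9449 CPM in P VITRO libraries and from 7862 to 8340 CPM in the others. The summed epithelial list ran from 1542 to 1665 CPM and from 1628 to 1708 CPM. The part of these markers in the differences given here was not tested. Of 11 leukocyte markers, 4, among them the pan-leukocyte gene Ptprc, had no count in any library, and so had 3 of 8 endothelial markers. The summed level was 12.5 to 13.9 CPM in P VITRO and 11.8 to 13.6 CPM in PTR VITRO for the leukocyte list, nearly all of it from Cd68 (11.3 to 13.2 CPM), and 0.248 to 0.385 and 0.177 to 0.247 CPM for the endothelial list. Among 12 fibroblast markers, Thy1 and Lum had no count in any library. The summed fibroblast list, which also holds Dcn, ran from 2529 to 2667 CPM in P VITRO libraries and from 2217 to 2425 CPM in the others, most of it from the collagen genes Col1a1 and Col1a2. Of its 8 tested members, 6 had a log2 fold change below 0 and 2, Pdpn and Pdgfra, above (median -0.12, edgeR called 0). An unadjusted p below 0.05 was found in 5, against 11.4% of all tested genes (6.13% lower and 5.26% higher in PTR VITRO). The level was lower in PTR VITRO for Pdgfrb, Col1a1, Col1a2 and Dcn and higher for Pdpn. Its part in the differences was not tested either. In bulk RNA, fewer cells that transcribe a gene and less RNA per cell cannot be told apart.

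A few glycoproteins held most of the transcripts of the 40 genes. The 40 genes together took 1.90% ± 0.0559 of all counts in P VITRO and 1.78% ± 0.0466 in PTR VITRO (SD, n = 3 each). Spp1, Fn1 and Sparc held 84.1% ± 0.182 of that in P VITRO and 83.6% ± 0.131 in PTR VITRO. Per kilobase of exon, Spp1 stood at 5012 ± 96.3 CPM per kb in P VITRO (SD, n = 3) and ranked 1 of 14201 tested genes with a known length. Fn1 ranked 84, Sparc 198 and Ecm1 654. Of the collagens, which are not among the 40, Col1a1 was at 169.5 and Col1a2 at 104 CPM per kb in P VITRO, between Sparc (297) and Ecm1 (94.8). Next in order were Ltbp1, Lamb1, Efemp2, Lama5, Lamc1 and Fbln2, and the same 10 genes led when length was taken from the longest transcript or samples were scaled by TMM.

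**Figure D1:**
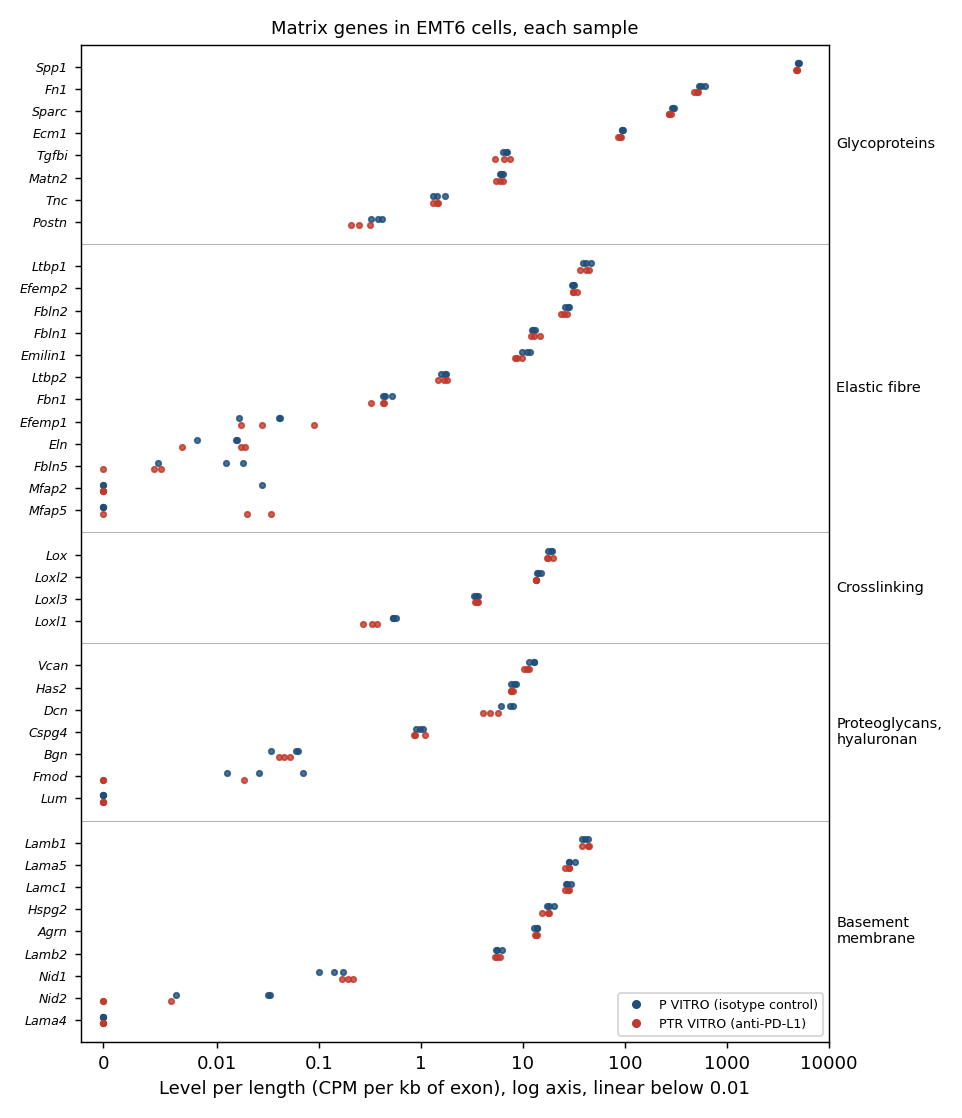
Level per length (CPM per kilobase of exon, log axis, linear below 0.01) of the 40 matrix genes in each of the 6 libraries, by class and in order of the P VITRO mean. Each point is a library, blue for P VITRO and red for PTR VITRO; Spp1 stands at 5012 CPM per kb in P VITRO, while Lum and Lama4 are at 0 in every library.

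The filter on low counts left out 10 of the genes, and these split the classes unevenly. All 8 glycoproteins and all 4 lysyl oxidases passed the filter, against 7 of 12 elastic fiber genes, 4 of 7 proteoglycan genes and 7 of 9 basement membrane genes. Lum, a collagen-binding small proteoglycan, and Lama4, the laminin alpha chain of vessels and muscle, had a count of 0 in all 6 libraries. A count of 0 allows up to 3 counts, or 0.168 CPM in the shallowest library, for counting error only. The elastic fiber core was near the floor, since Eln, elastin itself, had 18 counts over all 6 libraries. The microfibril genes Mfap2 and Mfap5 had 1 and 6 counts, and Fbln5 and Efemp1 had 8 and 13. Bgn had 47 counts, Fmod 12 and Nid2, the second nidogen, 10. The exons of Nid2 share 437 bases with Rtraf on the other strand, a gene at 92.5 CPM, and it is not stated whether reads were counted by strand. Differences between the groups in these 10 genes were not detectable at this depth.

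Neighboring genes of a family could be far apart in level. Dcn, decorin (chr10:97479609-97518143, GRCm38), and Lum (chr10:97565128-97572703) are small leucine-rich proteoglycan genes on the same strand with 46984 bases between them. Dcn was at 7.23 ± 0.989 CPM per kb in P VITRO and Lum had no count. Among the lysyl oxidases, Lox was at 18.7, Loxl2 at 14.4, Loxl3 at 3.48 and Loxl1 at 0.550 CPM per kb in P VITRO. Among the laminins, the alpha, beta and gamma chains Lama5 (29.8 ± 2.51), Lamb1 (40.8 ± 2.69) and Lamc1 (27.8 ± 1.82 CPM per kb) were of like height. Lamb2 was at 5.76 CPM per kb. Nid1, which joins laminin to collagen IV, was at 0.139 CPM per kb, below 97% of the tested genes.

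Promoter sequence was available for 26 of the 40 genes in the RefSeq table (GRCm38.p6), with 36 start sites among them. There was no entry for Dcn, Eln, Fn1, Has2, Lama4, Lamc1, Lox, Loxl1, Loxl2, Loxl3, Lum, Matn2, Mfap5 and Nid2. The 250 bases before each start were searched on both strands for a TATA box (TATAAA), an AP-1 site (TGANTCA), a TEAD site (CATTCC) and a GC box (GGGCGG), and matches may overlap. GC boxes were in 23 of the 36 windows (63.9%) and in 32.7% of all 32851 windows of the table. The median GC content was 59.2% in the windows of the matrix genes and 52.4% over all windows. TATAAA was in 5 windows (13.9%, against 12.4% of all), of Ecm1, Postn, Spp1 and Tnc. TGANTCA and CATTCC were each in 2 windows (5.56%, against 6.75% and 12.6% of all). A match is only a run of letters, and no match says only that these letters are not in the window.

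Windows are shown for 1 or more genes of each class with an entry: Spp1 (chr5:104434861-104435110, plus strand), with the highest level, Postn (chr3:54360857-54361106, plus), with the largest difference between the groups among genes with an entry that had an unadjusted p below 0.05, Efemp2 (chr19:5473696-5473945, plus), Vcan (chr13:89742513-89742762, minus), Lama5 (chr2:180225860-180226109, minus) and Bgn (chrX:73483351-73483600, plus), which was near the floor. Capitals mark the matches, read 5′ to 3′ on the strand of the gene.
Spp1: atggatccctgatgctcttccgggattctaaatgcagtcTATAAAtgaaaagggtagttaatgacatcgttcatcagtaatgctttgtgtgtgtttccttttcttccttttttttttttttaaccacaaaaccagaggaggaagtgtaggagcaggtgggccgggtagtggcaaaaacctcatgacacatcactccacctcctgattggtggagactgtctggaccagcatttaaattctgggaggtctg
Postn: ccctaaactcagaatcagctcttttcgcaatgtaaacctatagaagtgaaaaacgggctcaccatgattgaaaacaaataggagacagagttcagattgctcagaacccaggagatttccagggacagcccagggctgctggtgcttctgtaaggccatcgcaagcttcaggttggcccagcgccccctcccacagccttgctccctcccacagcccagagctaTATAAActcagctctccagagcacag
Efemp2: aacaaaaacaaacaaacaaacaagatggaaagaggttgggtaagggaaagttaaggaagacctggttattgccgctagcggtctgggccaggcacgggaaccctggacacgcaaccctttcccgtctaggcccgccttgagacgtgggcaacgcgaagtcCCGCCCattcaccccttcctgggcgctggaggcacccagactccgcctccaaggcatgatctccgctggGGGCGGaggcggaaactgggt
Vcan: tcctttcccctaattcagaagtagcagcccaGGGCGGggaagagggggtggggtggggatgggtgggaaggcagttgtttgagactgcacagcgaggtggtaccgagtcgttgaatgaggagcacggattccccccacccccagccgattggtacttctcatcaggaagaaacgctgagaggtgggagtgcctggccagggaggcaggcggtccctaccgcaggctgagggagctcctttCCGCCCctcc
Lama5: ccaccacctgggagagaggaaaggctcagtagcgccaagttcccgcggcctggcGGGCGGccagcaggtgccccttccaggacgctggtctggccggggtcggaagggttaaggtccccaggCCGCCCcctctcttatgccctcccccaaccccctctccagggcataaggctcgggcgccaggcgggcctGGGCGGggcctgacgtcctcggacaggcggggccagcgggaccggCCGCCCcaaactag
Bgn: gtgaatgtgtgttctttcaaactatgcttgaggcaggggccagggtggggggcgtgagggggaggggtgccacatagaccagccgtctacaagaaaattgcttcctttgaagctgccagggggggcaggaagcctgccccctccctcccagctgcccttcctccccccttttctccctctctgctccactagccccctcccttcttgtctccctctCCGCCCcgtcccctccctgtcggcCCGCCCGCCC

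In Postn, TATAAA begins 26 bases before the start site, and in Spp1 it begins 211 bases before it. The windows of Efemp2, Vcan, Lama5 and Bgn had no TATAAA and held from 2 to 4 GC boxes each. Bgn, with 5 to 11 counts in a library, and Lama5, with 5817 to 11153, both had GC boxes, so the letters did not separate a gene near the floor from a transcribed one.

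Between the groups, 0 of the 30 tested genes had an adjusted p below 0.05 in the edgeR quasi-likelihood test, where 0.246% of all 14217 tested genes did (0.148% lower and 0.0985% higher in PTR VITRO). At an unadjusted p below 0.05 there were 9 of the 30, against 11.4% of all genes (6.13% lower and 5.26% higher). All 9 had the lower level in PTR VITRO: Dcn, Loxl1, Postn, Emilin1, Vcan, Fn1, Sparc, Ecm1 and Spp1. The fitted log2 fold change (PTR VITRO minus P VITRO) was below 0 in 25 of 30, against 51.5% of all genes, and its median was -0.08 over the 30 and -0.00397 over all genes. The groups did not overlap in 8 of 30, all with the lower level in PTR VITRO, against 17.6% of all genes (9.33% lower and 8.27% higher). DESeq2 called 1 of the 30, Dcn, and limma-voom called 0. In the edgeR test Dcn was also called, as 1 of the 30, without P VITRO replicate 2 and without PTR VITRO replicate 1. Without a filter on low counts, 38 of the genes were tested and 4 (Fn1, Emilin1, Dcn and Vcan) were called. The share of all genes called was taken for the main fit only, so the counts of the other fits have no share beside them. The differences were small: the 95% interval lay within 1.5-fold in both directions for 26 of the 30 genes, all but Postn, Loxl1, Dcn and Nid1, and within 2-fold for all but Loxl1 and Nid1.

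**Figure D2:**
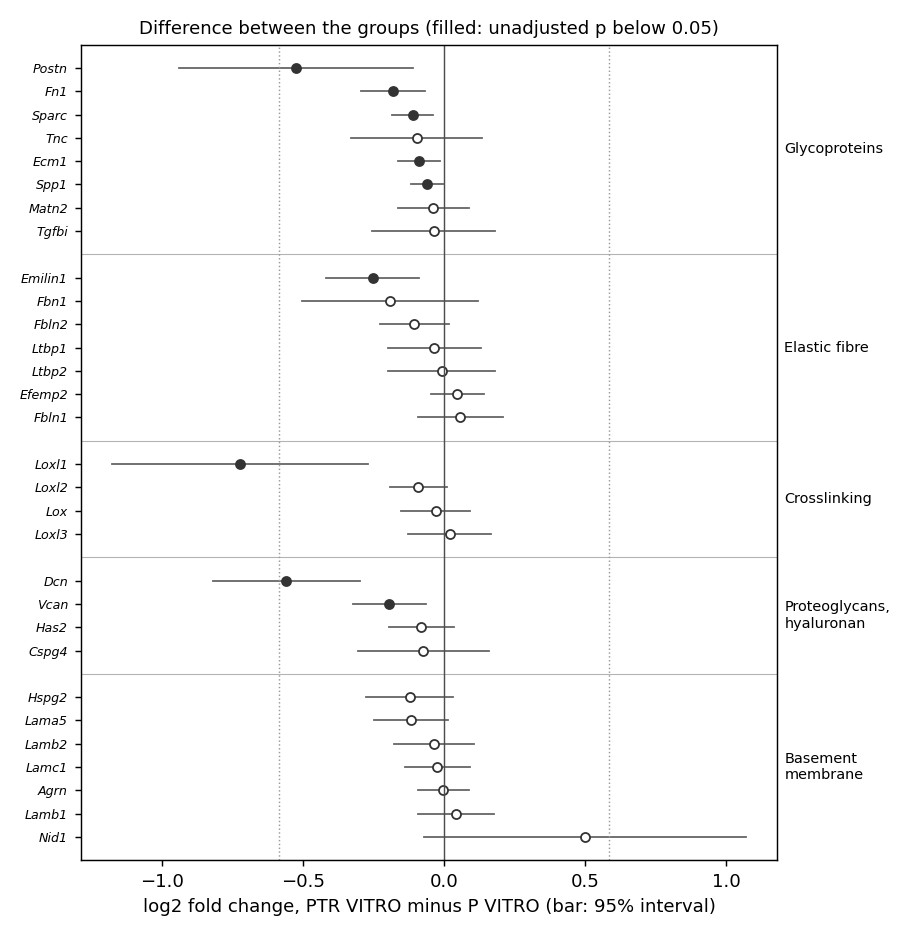
Log2 fold change (PTR VITRO minus P VITRO) of the 30 tested matrix genes by class, with 95% intervals from the edgeR fit; dotted lines mark 1.5-fold, and filled points have an unadjusted p below 0.05. All 9 filled points lie below 0, and Loxl1 has the lowest value (-0.72).

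All 8 glycoproteins had a log2 fold change below 0, with a median of -0.09, and 5 had an unadjusted p below 0.05. Fn1, fibronectin (ENSMUSG00000026193.15, chr1:71585520-71653200), was at 6252, 7167 and 6514 CPM in the P VITRO libraries and at 5506, 6088 and 6003 CPM in those of PTR VITRO. The lowest P VITRO library lay above the highest PTR VITRO library, so the groups did not overlap. The log2 fold change was -0.18 (with SE 0.0511 and edgeR adjusted p 0.208). Over the alternatives the adjusted p of Fn1 ran from 2.11e-07 (no filter on low counts) to 0.4325. Sparc, a collagen-binding matricellular protein, was at 1158, 1102 and 1115 CPM and at 1074, 1033 and 1017 CPM (fitted log2 fold change -0.11, edgeR adjusted p 0.227). Its groups were also apart. Spp1, osteopontin (ENSMUSG00000029304.14, chr5:104435118-104441050), was at 8131, 8212 and 8437 CPM and at 7868, 7931 and 7940 CPM. That is a log2 fold change of -0.06 (with SE 0.0257 and edgeR adjusted p 0.391), and the groups did not overlap. The exons of Spp1 share 309 bases with Gm42793 on the same strand, a gene at 7.92 CPM.

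Ecm1, a secreted glycoprotein that binds perlecan and fibulins, was at 238, 241 and 237 CPM in the P VITRO libraries and at 229.5, 218 and 225 CPM in those of PTR VITRO (fitted log2 fold change -0.09, edgeR adjusted p 0.332). All PTR VITRO values were below all P VITRO values. Postn, periostin, a matricellular protein that is typical of activated fibroblasts, was scarce, with 32 to 108 counts in a library. It was at 3.34, 3.60 and 2.85 CPM in the P VITRO libraries and at 2.75, 2.15 and 1.80 CPM in those of PTR VITRO, which gives a log2 fold change of -0.52 (95% interval -0.94 to -0.11, edgeR adjusted p 0.310). The groups were apart, though the highest PTR VITRO library was close to the lowest P VITRO library. Tnc, Tgfbi and Matn2 had overlapping groups and log2 fold changes of -0.10 to -0.04.

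Among the 7 tested elastic fiber genes, 5 had a log2 fold change below 0 (median -0.03), and Emilin1 alone had an unadjusted p below 0.05. Emilin1, a glycoprotein at the interface of elastin and microfibrils, was at 57.8, 48.03 and 54.00 CPM in the P VITRO libraries and at 48.5, 43.5 and 41.1 CPM in those of PTR VITRO. The highest PTR VITRO library was above the lowest P VITRO library, so the groups overlapped. The log2 fold change was -0.25 (with SE 0.0749 and edgeR adjusted p 0.225). The abundant genes of this class differed less. Ltbp1, which tethers latent TGF-beta to the matrix, was at 412, 494 and 443 CPM and at 393, 448 and 478 CPM (log2 fold change -0.03), and its sign turned without P VITRO replicate 2 (0.04) and without PTR VITRO replicate 1 (0.04).

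Efemp2, fibulin-4, which brings lysyl oxidase to elastin, was at 121, 117 and 116 CPM in the P VITRO libraries and at 128, 119 and 119 CPM in those of PTR VITRO (fitted log2 fold change 0.05, edgeR adjusted p 0.722; 0.01 without PTR VITRO replicate 1 and 0.07 without P VITRO replicate 1). It shares 173 exon bases with Mus81 on the other strand, a gene at 23.5 CPM. Fbln2, fibulin-2, a binding partner of fibronectin and fibrillin, was at 181, 165 and 177 CPM and at 175, 159.8 and 151 CPM (log2 fold change -0.11, edgeR adjusted p 0.514; -0.06 when PTR VITRO replicate 3 was left out, -0.16 when replicate 1 of that group was). In both genes the groups overlapped. Fbln1, Fbn1 and Ltbp2 had log2 fold changes of 0.06, -0.19 and -0.01, each with overlapping groups, and Fbn1, fibrillin-1, the main microfibril protein, was at only 0.462 CPM per kb in P VITRO.

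Of the 4 lysyl oxidases, 3 had a log2 fold change below 0 (median -0.06), and Loxl1 alone had an unadjusted p below 0.05. Loxl1, an enzyme that crosslinks elastin (ENSMUSG00000032334.10, chr9:58287738-58313186), was at 1.75, 1.90 and 1.78 CPM in the P VITRO libraries and at 1.11, 1.24 and 0.898 CPM in those of PTR VITRO. These are 41, 57 and 43 counts and 36, 35 and 16 counts, and the groups did not overlap. It had the lowest log2 fold change of the 30 genes, -0.72 (95% interval -1.18 to -0.27, edgeR adjusted p 0.208). Across the fits that left out 1 library its value stayed between -0.82 and -0.63, and no alternative that gave an adjusted p called it (0.132 to 0.471), while DESeq2 gave none.

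Lox, Loxl2 and Loxl3 had log2 fold changes of -0.09 to 0.02. Lox was at 92.1, 85.3 and 90.2 CPM in the P VITRO libraries and at 94.7, 83.6 and 83.3 CPM in those of PTR VITRO (fitted log2 fold change -0.03). Loxl2 was at 76.7, 82.2 and 74.01 CPM and at 73.4, 72.98 and 72.3 CPM (log2 fold change -0.09, edgeR adjusted p 0.490). The groups of Lox overlapped and those of Loxl2 did not. A 2348-base stretch of Loxl2 is identical in Gm21451, which was listed at 0 in all libraries. Loxl3 was at 15.4, 15.9 and 16.7 CPM and at 16.8, 15.6 and 16.3 CPM (log2 fold change 0.02). It shares 535 exon bases with Htra2 on the other strand, a gene at 44.9 CPM. The signs of Lox and Loxl3 turned when some single libraries were left out.

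All 4 tested proteoglycan and hyaluronan genes had a log2 fold change below 0, with a median of -0.14. Dcn had the smallest p of the 30 genes. It was at 46.9, 35.8 and 44.00 CPM in the P VITRO libraries and at 33.2, 27.7 and 23.8 CPM in those of PTR VITRO. Every PTR VITRO library was below every P VITRO library, with P VITRO replicate 2 closest to the other group. The mean was 42.2 ± 5.78 CPM and 28.2 ± 4.72 CPM (SD, n = 3 each), a log2 fold change of -0.56 (SE 0.118, 95% interval -0.82 to -0.30, edgeR adjusted p 0.0919). The adjusted p was 7.4e-05 with DESeq2, 0.0261 without P VITRO replicate 2 and 0.0249 without PTR VITRO replicate 1, and over all alternatives it ran from 1.84e-16 (no filter on low counts) to 0.399.

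Vcan, versican, a large chondroitin sulfate proteoglycan that binds hyaluronan, was at 165, 188 and 187 CPM in the P VITRO libraries and at 147, 167 and 159 CPM in those of PTR VITRO (fitted log2 fold change -0.19 with SE 0.0585 and edgeR adjusted p 0.229). P VITRO replicate 1 lay within the range of the other group. Has2, which synthesizes hyaluronan, was at 32.7, 36.1 and 34.8 CPM and at 32.45, 32.2 and 33.7 CPM (log2 fold change -0.08). Its groups overlapped, as did those of Cspg4 (log2 fold change -0.07).

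None of the 7 tested basement membrane genes had an unadjusted p below 0.05, and their median was -0.02. Lama5 was at 322, 372 and 324 CPM in the P VITRO libraries and at 293, 320.0 and 326.5 CPM in those of PTR VITRO (fitted log2 fold change -0.12, edgeR adjusted p 0.499), and the value was -0.04 without P VITRO replicate 2 and -0.07 without PTR VITRO replicate 1. Lamb1 was at 377, 430.5 and 407 CPM and at 379, 429.6 and 443 CPM (log2 fold change 0.04), and Lamc1 at 224, 247 and 219 CPM and at 214, 230.4 and 236 CPM (log2 fold change -0.02). The groups of all 3 laminin chains overlapped. The signs of Lamb1 and Lamc1 turned in fits without 1 library. Hspg2, perlecan, had a log2 fold change of -0.12, Lamb2 of -0.04 and Agrn, agrin, of -0.0026. Nid1, at 21 to 49 counts in a library, had the highest value of the 30 genes, 0.50 (95% interval -0.07 to 1.07), with overlapping groups.

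**Figure D3:**
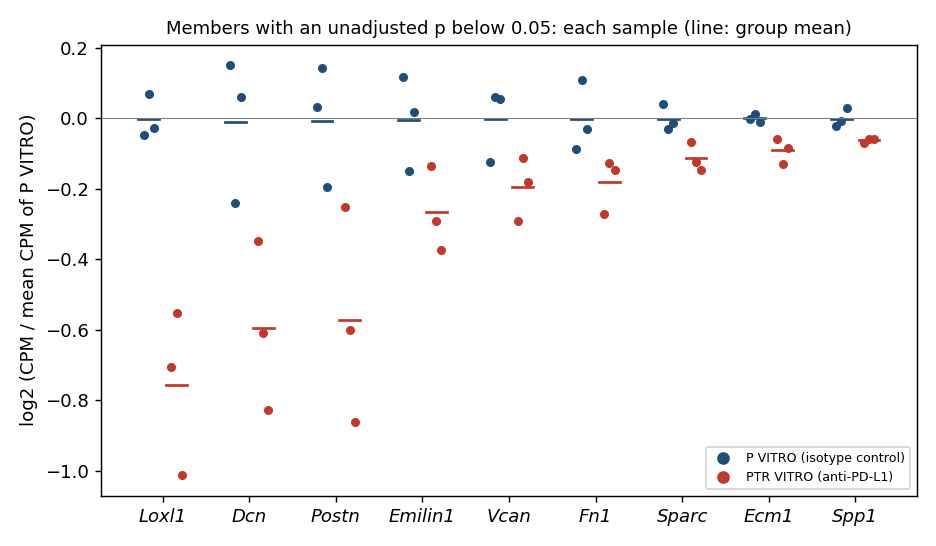
Log2 ratio of CPM to the P VITRO mean for each library (points) and group mean (lines) in the 9 matrix genes with an unadjusted p below 0.05. The groups do not overlap in 7 of them and overlap in Emilin1 and Vcan; the range within PTR VITRO is widest in Postn, Dcn and Loxl1.

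Within a group, the libraries did not deviate alike in all matrix genes. PTR VITRO replicate 1 was the highest of its group in 18 of the 30 genes (60.0%, against 41.1% of all tested genes) and the lowest in 9 (30.0%, against 32.8% of all). The 9 were Fn1, Tnc, Spp1, Ltbp1, Vcan, Hspg2, Lama5, Lamb1 and Lamc1, and in 8 of them, all but Lamc1, P VITRO replicate 1 was also the lowest of its group. In the other direction, PTR VITRO replicate 3, the shallowest library, was the lowest of its group in 16 genes (53.3%, against 39.4% of all), among them Dcn, Postn, Emilin1, Sparc and Loxl1. The exon length had a median of 10691 bases in the 9 genes (from 1648 in Spp1 to 14462) and 5621.5 bases in the 18 (2521 to 12128), so the ranges overlapped. Across all 14201 genes, the Spearman correlation of a library's deviation from its group mean with exon length was -0.139, 0.137 and -0.0431 in the P VITRO libraries and -0.0971, 0.0450 and 0.0638 in the PTR VITRO libraries. Across the 30 genes it was -0.395, 0.303, -0.0365, -0.371, 0.426 and 0.388 in the same order. Each correlation takes all its points from 1 library, and the deviations of a group sum to 0. Whether length had a part in the group differences was not tested. For the 30 genes the median coefficient of variation was 6.01% among P VITRO libraries and 7.24% among PTR VITRO libraries, against 5.89% and 5.55% for all tested genes.

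**Figure D4:**
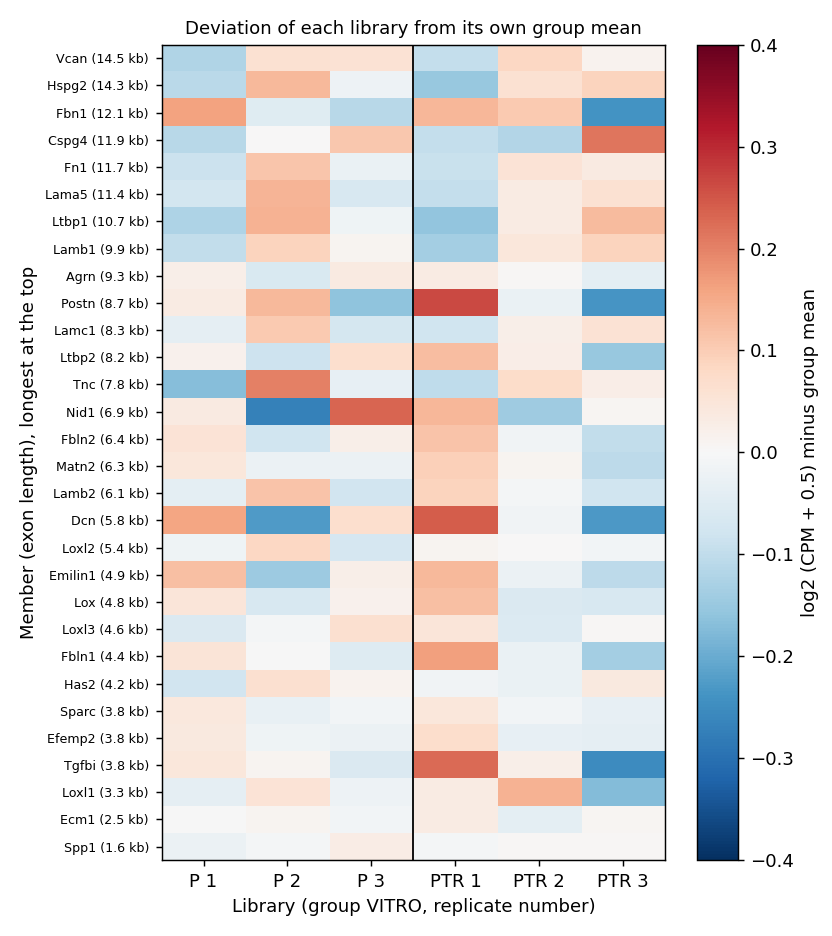
Deviation of each library from its own group mean (log2 of CPM + 0.5) for the 30 tested matrix genes, longest exon length at the top; red is above and blue below the group mean, and the black line separates P VITRO from PTR VITRO. Replicate 1 is the lowest of both groups in 8 genes (the share of all genes was not taken), among them Fn1, Ltbp1, Hspg2, Lama5 and Lamb1, while replicate 1 of PTR VITRO is red in Dcn and Postn.

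Other genes of the matrix were taken from a list of 99 non-collagen genes, of which 53 were tested. Of these, 27 had a log2 fold change below 0 and 26 above, with a median of -0.00148, and 0 were called by edgeR. An unadjusted p below 0.05 was found in 4 of the 53, against 11.4% of all genes. Loxl4, the fifth lysyl oxidase, had a mean of 379.5 ± 34.0 CPM in P VITRO against 316 ± 24.4 CPM in the other group (fitted log2 fold change -0.26, edgeR adjusted p 0.174), more per length (90.1 CPM per kb in P VITRO) than the 4 others. The means of Emilin2 were 31.2 ± 1.20 CPM and 35.8 ± 1.34 CPM (log2 fold change 0.21, edgeR adjusted p 0.174), the opposite sign to Emilin1. The small proteoglycan genes Prelp and Ogn had log2 fold changes of -0.72 and -0.17 (edgeR adjusted p 0.224 and 0.350). Prelp, like Dcn, was lowest in PTR VITRO replicate 3, at 3.65 CPM.

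Collagens are the ligands of several of these proteins. Of 17 collagen genes, 14 were tested, 13 had a log2 fold change below 0 (median -0.18; 51.5% of all genes were below 0) and 9 an unadjusted p below 0.05, against 11.4% of all genes. By adjusted p, 2 were called, against 0.246% of all genes, Col3a1 (log2 fold change -1.13, edgeR adjusted p 0.0196) and Col6a2 (-0.70, edgeR adjusted p 0.0196). In Col3a1, as in Dcn, P VITRO replicate 2 was the lowest of its group (10.9 CPM) and PTR VITRO replicate 3 the lowest of the other (4.60 CPM).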

How the data were processed

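The authors aligned reads of stranded poly(A) libraries to GRCm38 with STAR 2.6.0a and deposited gene-level estimated counts from RSEM 1.3.1, not scaled between samples. Whether reads were counted by strand is not given in the sources used here. Every sample column was used. The deposited values were taken to whole numbers and passed through filterByExpr with a minimum count of 10 and a minimum total of 15, which left 14217 genes. After upper quartile scaling, PTR VITRO was compared with P VITRO in edgeR 4.0.16 (R 4.3.3) by its quasi-likelihood test, without covariates, and Benjamini-Hochberg adjustment ran over all genes left. A gene is called at an adjusted p below 0.05. Standard errors came from the F statistic.

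Symbols, exon lengths and coordinates came from GENCODE M21 (GRCm38), and exon length is the union of all exons. Shared exons and transcripts at least 95% identical over 200 bases were looked up.

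The genes and lists were chosen with earlier results of these data known. Library values are given for genes with an unadjusted p below 0.05, the 3 highest per length of each class, and genes whose groups are apart with an absolute log2 fold change of at least 0.3. The order of libraries, the length correlations and the promoters shown were chosen after the values had been seen. The fit was tested on simulated counts for 14217 genes: of 100 genes changed by 2-fold it called 89, of 100 changed by 1.5-fold 75, and 23 unchanged genes were called. In that simulation, unchanged genes thus made up a larger share of the calls than the threshold of 0.05 aims at. Alternatives were TMM, no scaling factor, DESeq2 1.42.0, limma-voom (limma 3.58.1), other filters, a replicate block and leaving out each library.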

Additional observations from a re-analysis of the deposited data

How the results depend on the processing

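The 0 calls among the tested genes became 1 with DESeq2 (Dcn), 4 without a filter on low counts (Fn1, Emilin1, Dcn and Vcan) and 2 (Fn1 and Dcn) when replicate number entered the fit as a block, and stayed at 0 with TMM, no scaling factor, limma-voom and at least 10 counts in every sample. Without 1 library they ran from 0 to 1. The share of all genes called was not taken for these fits, so the counts are not a result about the listed genes. Replicate numbers were not taken as a pairing, since the correlations of same-numbered deviations across genes were 0.183, 0.0931 and -0.0427. The median log2 fold change ran from -0.0865 to -0.0507 when 1 library was left out, and the number of genes below 0 from 20 to 25. The 20 came from the fit without PTR VITRO replicate 3, which tested 31 of the genes, as did the fit without P VITRO replicate 3. Of 133 comparisons of single genes with other settings, 125 kept direction and side of the threshold, 7 became calls and 1 (Loxl1 with DESeq2) kept its direction with no adjusted p. Of 114 with 1 library left out, 103 were kept, 2 became calls and 9 changed sign. These were in Ltbp1 (-0.0934 to 0.0426), Lox (-0.0942 to 0.00499), Loxl3 (-0.00904 to 0.0540), Lamb1 (-0.00165 to 0.108) and Lamc1 (-0.0565 to 0.0315). In all, 10 of the 19 genes with library values changed sign or moved by over 1.5 times without 1 library, the others being Fbln2, Efemp2, Loxl2 (-0.05), Has2 (-0.05, both without P VITRO replicate 2) and Lama5; none of these 10 had an unadjusted p below 0.05. The causes of these changes were not tested. The 10 genes that the filter removed had at most 11 counts in a library.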
